A study of Mus musculus with 12 samples.

Results

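Retinal and striatal RNA from R6/1 mice was compared, to describe how far the RNA of each tissue keeps its identity in the presence of the Huntington's disease transgene. The comparison uses 6 of the 12 libraries of the series, 3 from R6/1 retina and 3 from R6/1 striatum, and all 16885 genes of the 17579 listed that had 10 or more counts summed over these 6. R6/1 mice carry a transgene of exon 1 of the human huntingtin gene with an expanded CAG repeat, under the human promoter, in addition to both of their own Htt alleles. The other 6 libraries, 3 from retina and 3 from striatum of wild-type (wt) littermates, serve as the same comparison without the transgene. All mice were labelled as males on a C57Bl/6 background, aged 13 to 15 weeks, with no treatment named. Members of the lists that are named for their difference between genotypes, or for their promoter, were chosen after their values were seen. Each library was made from pooled RNA of 3 to 4 mice, so n = 3 pools, and every error below rests on the spread between pools. By the study's methods both tissues were taken from the same mice, but no source used here says that equal pool numbers mark the same mice in retina and striatum, and the tissues were compared without pairing. Total counts of the R6/1 libraries were 15885261 to 22432431.

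The retina is the light-sensing layer of the eye. Rods and cones absorb photons with opsins and close cyclic nucleotide-gated channels through a G protein and a phosphodiesterase, and they signal to bipolar cells through ribbon synapses. The striatum is the input nucleus of the basal ganglia. Nearly all of its neurons are GABAergic medium spiny neurons, which receive dopamine and glutamate and divide into a direct pathway marked by D1 receptors and an indirect pathway marked by D2 and adenosine receptors. In Huntington's disease these spiny neurons are the most vulnerable cells. The retina of the mouse holds no myelin, whereas the striatum is crossed by bundles of myelinated axons.

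Some libraries stood apart before any tissue was compared. In R6/1 retina 2 a set of 10 skeletal muscle genes summed to 529 CPM (counts scaled to a common library size, with TMM factors), against 3.6 and 5.04 in the other R6/1 retinas. In R6/1 retina 3 the 15 lens genes summed to 734 CPM, against 3.49 and 9.62. R6/1 striatum 2 had 3619 CPM over the 20 genes of medium spiny neurons, below the 5959 and 6003 of its companions, and 253 CPM over 7 genes of other glutamatergic neurons such as Slc17a6 and Tcf7l2, against 43.6 and 46. The same 7 genes summed to 164 CPM in wt striatum 2 and to 49.1 and 58.1 in the other wt striata. In R6/1 striatum 3 Ttr, the main transcript of choroid plexus, stood at 130.1 CPM against 6.88 and 13.2. The muscle and glutamatergic sets were chosen after these libraries had been seen, and results that turn on such a library are given below with its values.

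A short homeobox motif stood more often before the genes higher in retina than before other genes, and promoters of rod genes that hold it are shown because this group had the widest tissue difference. The 6 letters TAATCC, the core recognised by the CRX and OTX homeobox factors that set photoreceptor identity, were searched on both strands. Within the 100 bases before the start site, 43 of 431 RefSeq promoters (9.98%) of genes at least 8-fold higher in R6/1 retina held them. The share was 1.43% (10 of 698) for genes at least 8-fold higher in R6/1 striatum, 1.66% for the other genes tested and 2.3% over all 32851 promoters in the table. In the 250 bases before the start site the shares were 14.6%, 4.3%, 5.16% and 6.25% in the same order. The table held promoters for 345 of the 500 retinal symbols and 530 of the 738 striatal symbols. Of 16 common medium spiny neuron genes with a promoter in the table, 3 held the motif within 100 bases (Actn2, Cnr1 and Hpca), in 3 of 38 promoters. Of the 30 rod genes listed, 20 had a promoter in the table and 8 held the motif within 100 bases. These 8 windows are given 5′ to 3′ on the strand of the gene, ending at the base before the RefSeq start, with the motif or its reverse complement in capitals.

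Sag: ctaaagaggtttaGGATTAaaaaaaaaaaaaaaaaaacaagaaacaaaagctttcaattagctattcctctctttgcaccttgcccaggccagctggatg
Cngb1: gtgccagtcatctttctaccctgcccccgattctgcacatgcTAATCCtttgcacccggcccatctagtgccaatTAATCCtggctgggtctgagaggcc
Gucy2f: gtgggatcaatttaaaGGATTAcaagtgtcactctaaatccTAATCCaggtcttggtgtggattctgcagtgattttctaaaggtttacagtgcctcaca
Guca1a: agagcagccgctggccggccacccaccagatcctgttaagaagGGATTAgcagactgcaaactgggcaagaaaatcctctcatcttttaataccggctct
Gngt1: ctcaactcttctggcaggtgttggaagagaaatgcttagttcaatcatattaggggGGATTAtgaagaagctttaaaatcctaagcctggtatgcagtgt
Rbp3: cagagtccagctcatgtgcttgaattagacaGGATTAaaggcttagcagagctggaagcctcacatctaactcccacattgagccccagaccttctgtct
Abca4: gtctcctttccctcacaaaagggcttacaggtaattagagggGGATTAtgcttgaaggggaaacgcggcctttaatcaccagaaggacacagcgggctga
Gucy2e: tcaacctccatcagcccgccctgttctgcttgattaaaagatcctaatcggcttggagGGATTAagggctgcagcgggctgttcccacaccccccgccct

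On GRCm38.p6 these windows are chr1:87803580-87803679 on the plus strand (Sag, rod arrestin), chr8:95306586-95306685 on the minus strand (Cngb1, a channel subunit) and chrX:142196937-142197036 on the minus strand (Gucy2f, a guanylyl cyclase). The others are chr17:47400607-47400706 on the minus strand (Guca1a, a cyclase activator), chr6:3993908-3994007 on the plus strand (Gngt1, the rod transducin gamma subunit) and chr14:33953903-33954002 on the plus strand (Rbp3, a retinoid carrier of the interphotoreceptor matrix). The last pair are chr3:122044360-122044459 on the plus strand (Abca4, a retinoid transporter of the disc rim) and chr11:69237023-69237122 on the minus strand (Gucy2e, the main photoreceptor cyclase). Cngb1 and Gucy2f each hold the motif at 2 places, and its distance from the start lies between 20 and 87 bases in the 8 windows. All 8 genes were at least 8-fold higher in retina, and which factor binds these sites was not measured.

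Other motifs were searched in the same windows. The full cAMP response element core GACGTC was in 1.15% of the promoters of striatal genes and 1.62% of those of retinal genes within 100 bases, against 3.75% of the other genes tested. The AP-1 site TGACTCA was in 2.01% and 0.928%, against 1.36%. Of 6 indirect-pathway genes with a promoter in the table, Gpr6, an orphan receptor of striatopallidal neurons, held GACGTC. Of 16 common spiny neuron genes 0 held it within 100 bases, and of 8 direct-pathway genes 1 did, Isl1, which was higher in retina. The Gpr6 window is shown as 1 striatal example picked after the search. It lies at chr10:41072291-41072390 on the minus strand, with the motif 77 to 72 bases before the start.

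Gpr6: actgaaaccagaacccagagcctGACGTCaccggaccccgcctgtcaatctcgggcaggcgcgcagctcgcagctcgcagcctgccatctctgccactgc

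Tissue separated the libraries far more than genotype did. The Spearman correlation across 16581 genes was 0.838 to 0.845 between R6/1 retinas and R6/1 striata, 0.982 to 0.989 between R6/1 and wt retinas, and 0.985 to 0.994 between R6/1 and wt striata. These correlations describe libraries that share a gene set and a normalization. Between wt retina and wt striatum it was 0.814 to 0.825, so that each pair of R6/1 tissues was more alike than any pair of wt tissues. The first principal component separated the tissues and held 87.5% of the variance of all 12 libraries, and 89.6% of that of the 6 R6/1 libraries.

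With edgeR's quasi-likelihood test, 12362 of 16885 genes (73.2%) differed between R6/1 retina and R6/1 striatum at a Benjamini-Hochberg adjusted p under 0.05. Of these, 6136 (36.3%) were higher in retina and 6226 (36.9%) were higher in striatum. A difference of at least 8-fold was found for 504 genes higher in retina (2.98%) and 739 higher in striatum (4.38%), and one of at least 32-fold for 199 (1.18%) and 184 (1.09%). For 12975 genes (76.8%) all 3 libraries of one tissue lay above all 3 of the other. In the wt comparison 12873 of 16864 genes (76.3%) differed, 37.8% higher in retina and 38.5% in striatum, and 614 (3.64%) and 889 (5.27%) differed by at least 8-fold. Leaving out 1 R6/1 library gave 496 to 527 genes at least 8-fold higher in retina and 710 to 811 higher in striatum. Every log2 fold change of a tissue given here is retina minus striatum, with its standard error (SE).

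A gene can be listed at 0 in a whole tissue. Over the 6 libraries of a tissue a listed gene had either 0 counts or at least 11, so a 0 is a listed value and is not taken as absence of RNA. Of the genes tested, 528 were at 0 in all 3 R6/1 striata, and 522 of these were at 0 in the wt striata too. In retina 652 were at 0, 645 of them also in wt. For such genes the fold is a lower bound, set at 3 counts per library. In bulk tissue, fewer cells of a type and less RNA per cell cannot be told apart.

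**Figure D1:**
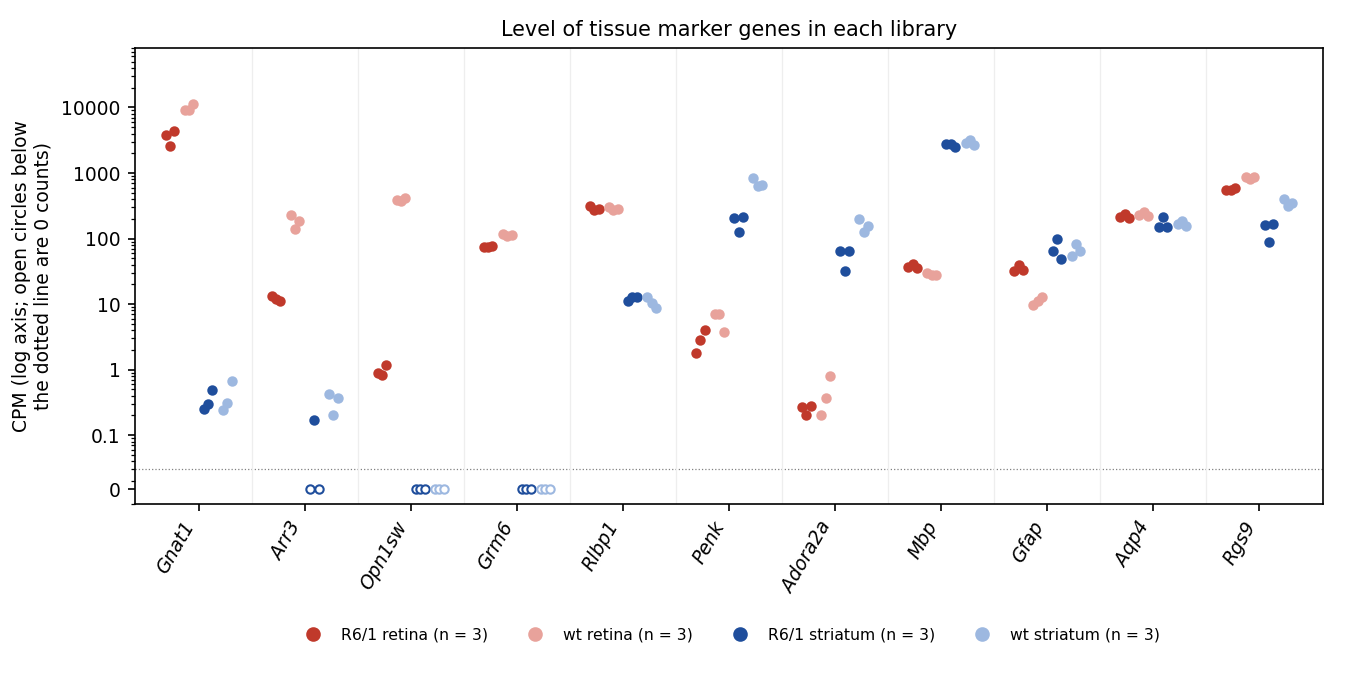
CPM of 11 marker genes (log axis) in each of the 12 libraries, coloured by tissue and genotype, with open circles for libraries at 0. Rod, cone and bipolar genes sit high in retina, striatal and myelin genes high in striatum, and Opn1sw stands at 0.823 to 1.16 CPM in R6/1 retina against 375 to 415 in wt retina.

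Rod genes showed the widest tissue difference. All 30 members of the rod phototransduction and outer segment list were higher in retina of R6/1 mice, where 36.3% of all genes were. Their median difference was 11.14 on the log2 scale (range 4.59 to 13.68, genes at 0 at their bound) against 0.02 over all genes. Grk1 (ENSMUSG00000031450, chromosome 8 from 13405081 to 13421951), the photoreceptor receptor kinase, was at 1211, 1149.8 and 1309 CPM in the R6/1 retinas and 0.806, 0.559 and 0.880 in the striata. The lowest retina lay far above the highest striatum (10.70, SE 0.13, adjusted p = 9.28e-12). Rcvrn, the calcium sensor that restrains this kinase, stood at 366, 344 and 383 against 0.372, 0.258 and 0.440 CPM (10.02, SE 0.13). Gnat1, the rod transducin alpha subunit, had 3769, 2605 and 4336 CPM in retina and 0.248, 0.301 and 0.495 in striatum. R6/1 retina 2 was the lowest of the R6/1 retinas for these 3 genes, and no library overlapped between the tissues. Tulp1, a trafficking protein of the photoreceptor cilium, had 687, 598 and 714 CPM in retina and was listed at 0 in striatum, a difference of at least 4163-fold.

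The summed rod level of every R6/1 retina lay below that of every wt retina, and the striatal levels of both genotypes were close. Summed over the list, the R6/1 retinas had 33429, 41887 and 44403 CPM in ascending order and the wt retinas 89049 to 99277, and the striata had 39.0 to 44.3 (R6/1) and 42.4 to 45.8 (wt). Gnat1 had a mean of 9896 CPM in wt retina, and its tissue difference was not called between genotypes (−1.27, SE 0.74, adjusted p = 0.353). Its striatal counts were few, so the missing call does not show an equal tissue difference in the genotypes. This limit also holds for other rod genes with few striatal counts. The edgeR comparison of genotypes could not assess the 4 rod genes at 0 in striatum. A difference between the genotypes was called for 7 of the 30 rod genes, where 7.45% of all genes were called. Of these, 6 had a smaller tissue difference in R6/1, among them Reep6, Gucy2e, Gucy2f and Rom1, and Impg1, a proteoglycan of the interphotoreceptor matrix, had a larger one (2.06, SE 0.22, adjusted p = 0.000124). Impg1 reached this at similar retinal levels, 424, 424 and 489 CPM in R6/1 and a mean of 484 CPM in wt, with a mean of 3.16 CPM in wt striatum and 0.516 to 0.868 in R6/1 striatum. Without both striatal libraries numbered 2, 2 of 30 were called, Gucy2f and Impg1, where 12.5% of all genes were. With all libraries the count was 9 by DESeq2, 9 with a replicate block and 3 by limma-voom. It was 3 without wt striatum 1 and 4 without wt striatum 3, wt retina 3 or any 1 of the R6/1 striata.

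Cone genes kept a tissue difference from a much lower retinal level. Of 11 tested members of the cone phototransduction list, which shares Grk1 with the rod list, 10 were higher in R6/1 retina. Their median difference was 7.06 (log2), against 9.12 in wt over the same genes. Opn1sw, the short-wave cone opsin, was at 0.873, 0.823 and 1.16 CPM in the R6/1 retinas and listed at 0 in all striata, a difference of at least 5.96-fold, while the wt retinas had 391, 375 and 415 CPM. Opn1mw, the middle-wave opsin, had 0.0546, 0.154 and 0 CPM in R6/1 retina against 106, 97.2 and 95.8 in wt, and was too low to be tested between the R6/1 tissues. Both opsins thus stood at about 1 CPM or less in R6/1 retina. Arr3, cone arrestin, had 13.3, 12.1 and 11.1 CPM in R6/1 retina, 0, 0.172 and 0 in R6/1 striatum and 226, 139.7 and 185 in wt retina (7.34, SE 0.47, adjusted p = 7.35e-07 between the R6/1 tissues). Gnb3, a transducin beta subunit also used by bipolar cells, stood at 331, 342 and 323 CPM in R6/1 retina and at a mean of 205 in wt. Between genotypes edgeR called 1 of 11 cone genes, Gngt2 (−0.84, adjusted p = 0.0469), and its fit could not assess the 4 members at 0 in striatum. DESeq2 called 3, Gngt2, Opn1sw and Pde6h, and limma-voom called 1, Opn1sw. By edgeR Gngt2 was still called without R6/1 retina 1 or R6/1 striatum 3, and was not called without any 1 of the other 10 libraries. Slc24a2, a cone exchanger that is also found in brain neurons, was higher in striatum (−2.12, SE 0.07).

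**Figure D2:**
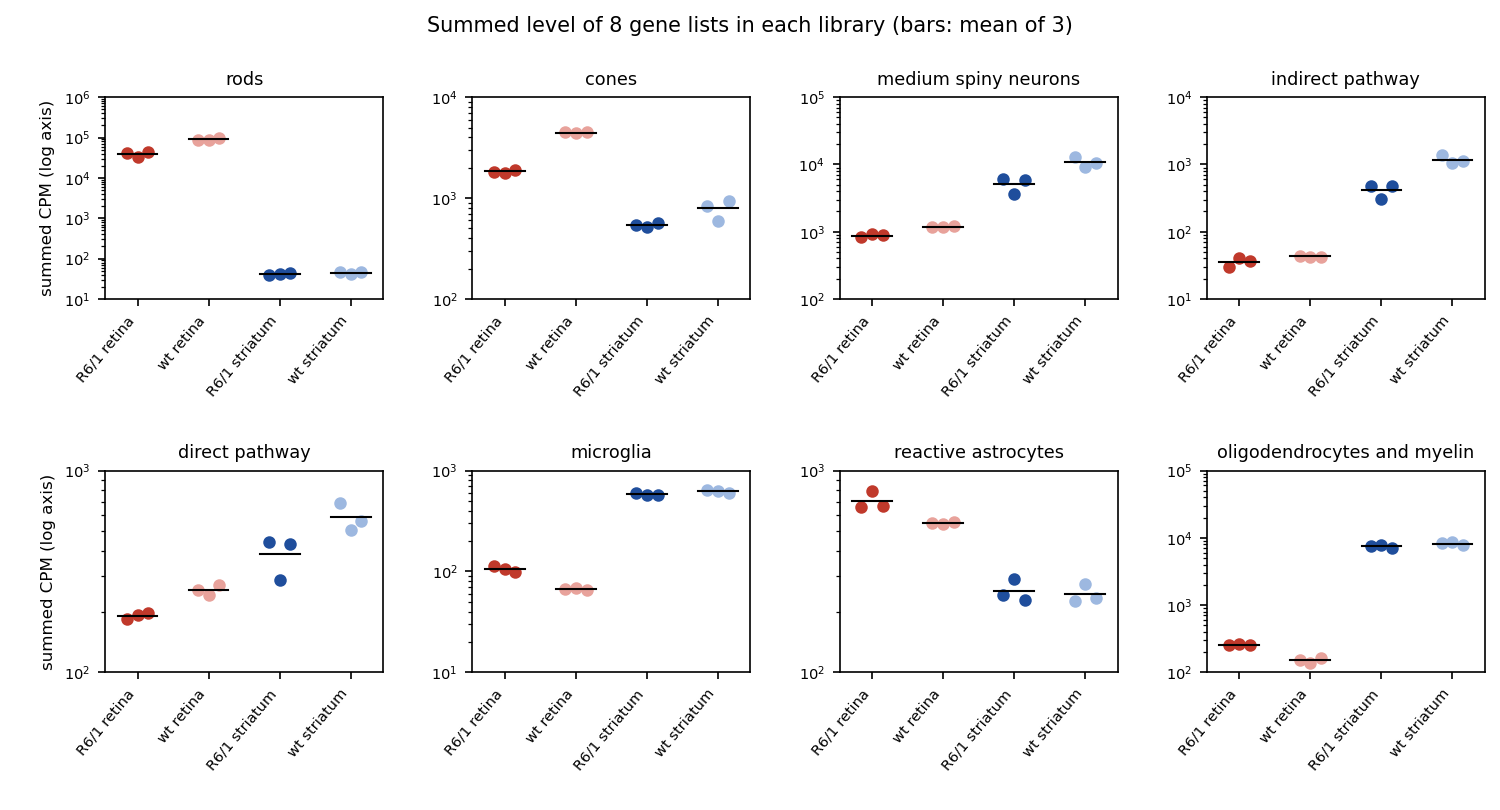
Summed CPM of 8 gene lists (log axes) in each library, with a bar at the mean of the 3 libraries of a group. Rod and cone sums are lower in R6/1 than in wt retina, spiny neuron sums are lower in R6/1 than in wt striatum with R6/1 striatum 2 the lowest, and microglial sums are higher in R6/1 than in wt retina (97.6 to 114 against 65.9 to 68.3). Grk1 is counted in both the rod and the cone sums.

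Most transcription factors of photoreceptors were higher in retina, over a wide range. Of 12 on the list 11 were higher in R6/1 retina (median 7.03, wt 7.65), from 0.98 for Thrb, a thyroid hormone receptor of cones, to 12.46. Crx (ENSMUSG00000041578, chromosome 7 from 15865947 to 15879968), the homeobox factor of the motif above, had 778, 749 and 897 CPM in R6/1 retina and was listed at 0 in striatum, a difference of at least 5052-fold. Nrl, which directs rod over cone fate, had 589, 432 and 543 CPM against 0, 0.172 and 0.0550 (12.46, SE 0.28). Samd11, a photoreceptor regulator, had 164, 139 and 169 CPM in R6/1 retina, a mean of 413 in wt retina and 1.30 to 1.51 in R6/1 striatum, and its tissue difference was smaller in R6/1 (−1.62, SE 0.29, adjusted p = 0.00449). Rxrg, a retinoid receptor of cones that spiny neurons also express, was higher in striatum (−3.22, SE 0.32), with R6/1 striatum 2 the lowest at 23.3 CPM against 46.2 and 43.5.

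Inner retinal genes were less uniform. All 14 bipolar cell genes were higher in R6/1 retina (median 7.4, wt 7.60), and the comparison of genotypes called 0 of 14 by edgeR, with 1 at an unadjusted p under 0.05, 1 called by DESeq2 and 0 by limma-voom. The edgeR comparison cannot assess the 6 members at 0 in striatum. Grm6, the glutamate receptor of ON bipolar cells, had 73.4, 75.4 and 76.8 CPM in R6/1 retina and 0 in striatum, a difference of at least 470.0-fold. Trpm1, the channel it controls, had 186, 215 and 215 CPM against 0.186, 0.129 and 0.495 (9.59, SE 0.19). Of 14 amacrine and horizontal cell genes 11 were higher in retina, 2 in striatum (Calb1 and Onecut2) and 1 not called (Calb2), and the 13 that were tested in both genotypes had a median of 3.07 against 4.29 in wt. Tfap2b, an amacrine cell factor, had 99.1, 114 and 108 CPM against 0.372, 0.344 and 0.330 (8.25, SE 0.13). Slc6a9, the glycine transporter, Onecut1 and Pax6 had a smaller tissue difference in R6/1 (−0.84, −3.09 and −0.60), and Slc17a8 and Calb1 had a larger one. Calb2, calretinin, had 85.8, 81.4 and 97.3 CPM in R6/1 retina and 5.39, 52.9 and 4.84 in striatum, with the high value in R6/1 striatum 2, and was not called (2.03, SE 1.04, adjusted p = 0.149).

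Ganglion cell and glial genes of the retina overlapped with those of brain. Of 13 ganglion cell genes 8 were higher in retina, Thy1 and Nefm were higher in striatum, and Nefl, Slc17a6 and Eomes were not called. Sncg, gamma-synuclein, had 46.5, 40.0 and 47.6 CPM in R6/1 retina against 1.80, 3.23 and 1.65 (4.29, SE 0.21). Slc17a6, the vesicular glutamate transporter of ganglion cells, had 63.8, 61.7 and 73.8 CPM in retina and 10.7, 96.3 and 13.9 in striatum, again with R6/1 striatum 2 above all retinas. Of 12 Müller glia genes 8 were higher in retina and Kcnj10, Slc1a3 and Sox9, shared with astrocytes, were higher in striatum. Rlbp1, the retinaldehyde carrier, had 310.3, 276 and 284 CPM in R6/1 retina and 11.3, 12.7 and 13.0 in striatum (4.56, SE 0.08), and its tissue difference did not pass the comparison with wt (−0.19, SE 0.15, adjusted p = 0.489). Rdh10 had a larger tissue difference in R6/1 than in wt (0.54, adjusted p = 0.0144).

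Retinoid handling genes were higher in retina, and ribbon synapse genes divided between the tissues. All 15 visual cycle genes were higher in R6/1 retina (median 3.16, wt 2.50), and so were 11 of 12 genes of the retinal pigment epithelium (median 2.77, wt 2.87), a tissue beneath the retina that can remain on it at dissection. Rdh12, a retinol dehydrogenase of photoreceptors, had 247, 183 and 221 CPM in R6/1 retina, a mean of 465 in wt retina and 3.35 to 4.45 in R6/1 striatum, and its difference was smaller in R6/1 (−1.78, SE 0.29, adjusted p = 0.00361). Dhrs3 and Rdh10 had a larger difference. Of 14 ribbon synapse genes 9 were higher in retina and 4 in striatum. Cplx4 and Cacna1f, the complexin and the calcium channel of photoreceptor terminals, were listed at 0 in striatum, differences of at least 3604-fold and 1821-fold. Bsn, Pclo and Syngr1, shared with conventional synapses, and Otof were higher in striatum. Unc119 had a smaller difference in R6/1 than in wt (−1.10, adjusted p = 0.00733). Of 15 lens genes edgeR called 0 between the R6/1 tissues, with 0 at an unadjusted p under 0.05, and DESeq2 and limma-voom called 1 each. With a replicate block 10 were called, all higher in retina, and with a non-robust estimate of the spread 11 were, 10 of them higher in retina. Their level lay mainly in R6/1 retina 3, with Cryaa at 0.873, 4.27 and 339 CPM in the 3 retinas, and without that library 7 were called, 5 higher in retina and 2, Bfsp2 and Crybb1, higher in striatum.

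The 12 genes chosen by smallest p in the retinal direction included several of photoreceptors. Rgs9bp, the anchor of the transducin deactivating complex, had 527, 508 and 543 CPM against 0.434, 0.602 and 0.385 (10.07, SE 0.12). It was lower in R6/1 than in wt retina (mean 1243 CPM), and its tissue difference was smaller by 1.59 on the log2 scale (−1.59, adjusted p = 0.0159). Rpgrip1, a protein of the connecting cilium, had 1412, 1483 and 1521 CPM against 0.930, 1.29 and 0.605 (10.57, SE 0.15). Neurod4, a factor of retinal interneurons, had 234, 222 and 211 CPM against 0.124, 0.172 and 0.0550 (10.77, SE 0.15), and the kinase gene Mak had 490.1, 508 and 482 against 8.43, 7.14 and 8.08 (5.98, SE 0.09). Cplx3, a complexin of ribbon synapses, and Impg2, a matrix proteoglycan, had differences of 7.11 and 9.28.

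Medium spiny neuron genes remained higher in striatum but from a lower level. Of 20 tested, 17 were higher in R6/1 striatum, where 36.9% of all genes were, 1 was higher in retina and 2 were not called, with a median of −3.94 against −4.74 in wt. Summed over the list, R6/1 striata had 3619, 5959 and 6003 CPM in ascending order, wt striata 9317 to 12906, and R6/1 retinas 828 to 916. Ptpn5, the striatal-enriched phosphatase, had 229.6, 174 and 229.7 CPM in R6/1 striatum and 3.71, 3.29 and 3.77 in retina (−5.87, SE 0.15, adjusted p = 1.36e-09). Its mean in wt striatum was 344 CPM, and the tissue difference was smaller in R6/1 (1.15, SE 0.21, adjusted p = 0.00469). Ppp1r1b, encoding DARPP-32, was chosen after its values were seen, with 379, 173 and 336 CPM in R6/1 striatum, 874, 610.4 and 689 in wt striatum and 6.2 to 7.97 in R6/1 retina (−5.40, SE 0.42). Pde10a, the striatal phosphodiesterase, had 465, 242 and 466 CPM in R6/1 striatum, a mean of 1173 in wt striatum and 27.6, 65.9 and 39.3 in R6/1 retina (−3.13, SE 0.48). In each of these 3 genes R6/1 striatum 2 was the lowest striatum and still lay above all R6/1 retinas.

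The comparison of genotypes called 3 of the 20 spiny neuron genes, where it called 7.45% of all genes. These were Ptpn5, Adcy5 and Cnr1, all with a smaller tissue difference in R6/1. Leaving out both striatal libraries numbered 2, which was decided with their values in view, raised the count to 10 of 20, where 12.5% of all genes were called. Ppp1r1b (1.14, adjusted p = 0.00394), Arpp21 (0.92, adjusted p = 0.00485), Scn4b (2.24, adjusted p = 0.0314), Camk4, Pde1b, Hpca and Rgs9 then joined the 3. All 10 were positive, which for Rgs9 means a larger tissue difference in R6/1. With all libraries, Ppp1r1b had a similar difference of 1.27 and an adjusted p of 0.155. By DESeq2 on all libraries 10 of 20 were called. With edgeR the count was 7 without R6/1 striatum 2 alone, and 1 without R6/1 retina 1, wt retina 1, wt retina 2 or wt striatum 3. Ryr1 and Actn2, channel and cytoskeletal genes that muscle also expresses, were not called between the R6/1 tissues. Actn2 had 0.273, 18.0 and 0.388 CPM in R6/1 retina and Ryr1 had 1.75, 16.6 and 1.55, the high value of each lying in the library with 529 CPM of muscle genes, whose part in these results was not tested.

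Both output pathways of the striatum kept their genes above retina. Of 8 tested indirect-pathway genes 7 were higher in R6/1 striatum (median −5.90, wt −6.43). Penk (ENSMUSG00000045573, chromosome 4 from 4133531 to 4138819), which encodes the enkephalin precursor, had 207, 127 and 211 CPM in R6/1 striatum, 1.80, 2.83 and 3.99 in R6/1 retina and 839, 636 and 659 in wt striatum. The R6/1 striata lay below all wt striata and far above retina (−5.97, SE 0.36, adjusted p = 4.27e-05). Adora2a, an adenosine receptor, had 65.6, 32 and 64.3 CPM in R6/1 striatum against 0.273, 0.206 and 0.277 in retina (−7.70, SE 0.51). Gpr6 had 13.1, 6.54 and 13.9 CPM in R6/1 striatum and was listed at 0 in retina, a difference of at least 69.4-fold. The comparison of genotypes called 0 of these 8 genes by edgeR, with 1 at an unadjusted p under 0.05, and 0 by DESeq2 and limma-voom. The edgeR comparison could not assess the 3 at 0 in retina. Without both libraries numbered 2 it called 1 gene, Drd2 (0.61, adjusted p = 0.0112), where it called 12.5% of all genes. Ttc12, a gene near Drd2, was higher in retina (1.28, SE 0.20).

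Of 9 direct-pathway genes 7 were higher in R6/1 striatum (median −1.91, wt −2.16). Chrm4, the M4 muscarinic receptor, had 15.6, 8.95 and 14.7 CPM against 0.436, 0.206 and 0.222 in retina (−5.47, SE 0.33), and Pdyn, the dynorphin precursor, had 47.4, 28.6 and 45.4 against 6.33, 7.30 and 7.92 (−2.48, SE 0.21). Drd1 and Tac1 were chosen after their values were seen. Drd1, the D1 receptor, had 115, 59.9 and 113 CPM in R6/1 striatum and 36.1, 36 and 34.0 in retina (−1.43, SE 0.28), and Tac1, the substance P precursor, had 108, 59.8 and 109 against 6.49, 6.33 and 5.59 (−3.90, SE 0.30). Isl1, a factor of direct-pathway neurons that retinal bipolar and ganglion cells also use, was higher in retina (1.96, SE 0.08), less so than in wt (−0.83, adjusted p = 0.00312). It was the 1 direct-pathway gene called between genotypes with all libraries, and 4 were called without R6/1 striatum 2. Without both libraries numbered 2, 6 of 9 were called, 4 of these negative and 2 positive, where 12.5% of all genes were called.

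Regional identity genes of the forebrain separated the tissues. Of 20 striatal transcription factors 17 were higher in R6/1 striatum, with a median of −4.54 against −4.28 in wt, and 7 of the 20 were listed at 0 in retina. Six3 and Ebf1, used in eye and striatum, were not called (0.20 and 0.08). Of 13 interneuron genes 8 were higher in striatum. Sst, somatostatin, had 43.3, 33.4 and 43.6 CPM against 0.491, 0.309 and 0.222 (−6.84, SE 0.21). Chat, which makes acetylcholine in striatal interneurons and starburst amacrine cells, was slightly higher in R6/1 retina at 5.67, 7.25 and 7.76 CPM against 4.96, 3.83 and 4.45 in striatum (0.66, SE 0.18). Its mean was 7.48 CPM in wt retina and 9.52 in wt striatum, and the genotypes differed by 0.99 (SE 0.23, adjusted p = 0.0161). Slc5a7, the choline transporter of the same cells, differed between genotypes as well (1.2, SE 0.15, adjusted p = 0.000391).

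Genes of cortical excitatory neurons were present in the striatal libraries, and the cells they came from were not tested. Of 10 cortical excitatory neuron genes 8 were higher in R6/1 striatum, and Slc17a7 and Fezf2, which retina also uses, were higher in retina. The summed level was 574 to 708 CPM in R6/1 striatum and 807 to 985 in R6/1 retina, where Slc17a7 is counted as well. In wt striata 1, 2 and 3 it was 1141, 551 and 1143 CPM. Tbr1, a factor of deep-layer cortical neurons, had 24.9, 30.0 and 39.4 CPM in R6/1 striatum against 2.13, 1.44 and 1.5 in retina (−4.21, SE 0.22). Camk2a and Enc1, both abundant in forebrain neurons, were among the genes with the smallest p in this direction, Camk2a with 1315, 1183 and 1367 CPM against 19.6, 22.9 and 23.1 (−5.87, SE 0.10). Htr2c, a serotonin receptor, had 164, 144 and 162 CPM against 3.44, 4.17 and 3.99 (−5.33, SE 0.10), and its difference was larger than in wt (−1.09, SE 0.18, adjusted p = 0.00200). The calcium and potassium channel genes Cacna1e and Kcnq3 and the factor Pou3f3 were also far higher in striatum (−4.89, −4.49 and −5.37). Of 18 genes of conventional synaptic vesicle release 13 were higher in striatum and 3 in retina, with a median of −0.99. Syp and Snap25 were not called (0.09 and −0.15).

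**Figure D3:**
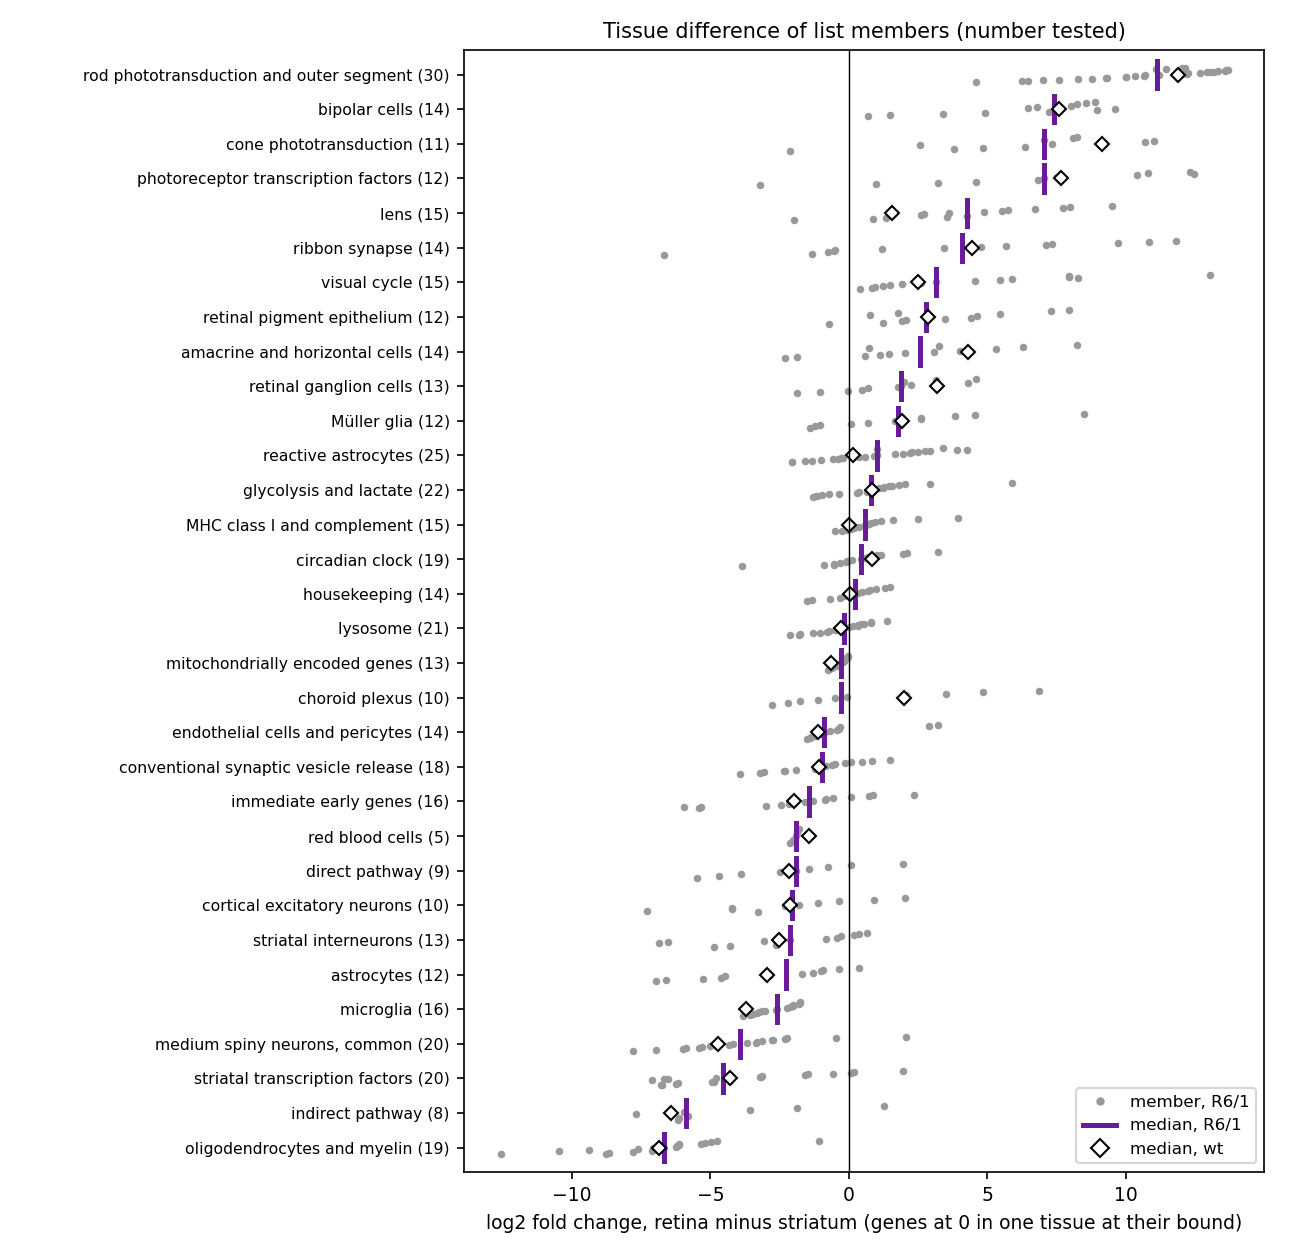
Log2 fold change, retina minus striatum, of every tested member (grey points) of the 32 gene lists in R6/1, genes at 0 at their bound, with the R6/1 median (purple bar) and the wt median (open diamond). Medians run from 11.14 for rods to −6.67 for myelin, and the medians of rods, cones, spiny neurons and microglia lie nearer to 0 in R6/1 than in wt.

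Myelin genes were far higher in striatum. All 19 oligodendrocyte and myelin genes were higher in R6/1 striatum, with a median of −6.67 against −6.84 in wt (genes at 0 at their bound). Mobp, a structural protein of myelin, had 963, 1062 and 914 CPM in striatum and was listed at 0 in retina, a difference of at least 6069-fold. Cldn11, the myelin tight junction protein, had 127, 119 and 125 CPM against 0.109, 0.154 and 0.277 (−9.37, SE 0.14). The tissues did not overlap in either gene. Trf, transferrin, had a smaller difference in R6/1 (1.04, SE 0.13, adjusted p = 0.000391), with 177, 187 and 185 CPM in R6/1 retina, 81.4, 76.2 and 90.8 in wt retina and 372, 429 and 362 in R6/1 striatum. Mbp also had a smaller difference (0.52, adjusted p = 0.0142).

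Microglial genes were higher in striatum in both genotypes, and their tissue difference was smaller in R6/1. All 16 were higher in R6/1 striatum (median −2.60, wt −3.70), and 12 of 16 differed between genotypes, all 12 with a smaller difference, where 5.16% of all genes had one. Ctss, a lysosomal protease of microglia, had 24.4, 24.2 and 19.6 CPM in R6/1 retina, 11.6, 13.0 and 11.5 in wt retina, and 80.4, 81.1 and 69.3 in R6/1 striatum (−1.75, SE 0.10), and the genotypes differed by 0.88 (SE 0.14, adjusted p = 0.00198). The R6/1 retinas lay above all wt retinas and below all striata. The complement genes C1qa, C1qb and C1qc and the adaptor Tyrobp differed by 1.37, 1.2, 1.47 and 1.80. Cx3cr1, Csf1r and Itgam, receptors of microglia, differed by 0.59, 0.56 and 0.72, and P2ry12 (0.34, adjusted p = 0.167) and Siglech (0.42, adjusted p = 0.30) were not called. Without both striatal libraries numbered 2, 11 of 16 were called, where 12.5% of all genes were. The count was 7 by limma-voom, 7 without R6/1 retina 1 and 7 without wt retina 3.

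Astrocyte genes were higher in striatum, whereas genes of reactive astrocytes were more often higher in R6/1 retina. Of 12 astrocyte genes 10 were higher in R6/1 striatum, Aqp4 was higher in retina and Agt was not called. Slc1a2, the main glutamate transporter, had 2949, 2931 and 3083 CPM against 389, 457 and 387 (−2.85, SE 0.08). Gfap (ENSMUSG00000020932, chromosome 11 from 102887336 to 102900912), the filament of astrocytes and of injured Müller glia, had 31.7, 39.6 and 32.8 CPM in R6/1 retina, 9.77, 11.1 and 13.0 in wt retina and 65.3, 97.7 and 49.0 in R6/1 striatum. It remained higher in striatum (−1.02, SE 0.28, adjusted p = 0.0199), with no overlap of libraries, and by less than in wt (1.55, SE 0.36, adjusted p = 0.0323). Of 25 genes of reactive astrocytes 15 were higher in the R6/1 retinas and 6 in the striata (median 1.01), against 10 and 9 in wt (median 0.15). Over all genes the shares were 36.3% and 36.9% in R6/1, and 37.8% and 38.5% in wt. The comparison of genotypes called 6 of 25, all positive, where 7.45% of all genes were called. It called 3 without R6/1 retina 2, wt retina 1, wt retina 3 or wt striatum 3. Osmr, the oncostatin receptor, had 23.7, 34.0 and 25.0 CPM in R6/1 retina, a mean of 12.1 in wt retina and 5.14 to 6.07 in R6/1 striatum (difference between genotypes 1.14, adjusted p = 0.00361). Serpina3n, a protease inhibitor, had opposite tissue differences in the 2 genotypes (2.24, adjusted p = 0.0136). A2m, alpha-2-macroglobulin, had 47.0, 74.4 and 35.3 CPM in R6/1 retina and 1.67 to 4.13 in R6/1 striatum (4.28, SE 0.48), and its difference between genotypes was not called (2.02, SE 0.65, adjusted p = 0.10).

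Antigen presentation and complement genes tended to the retina in R6/1. Of 15 genes 9 were higher in the R6/1 retinas and 2 in the striata (median 0.58), against 3 and 4 in wt (median 0.01). Between genotypes 5 of 15 differed, all positive, where 7.45% of all genes did. H2-K1, a class I heavy chain whose reads may be shared with related class I genes, had 37.2, 43.0 and 36.8 CPM in R6/1 retina and 21.1, 21.1 and 19.5 in R6/1 striatum (0.93, SE 0.09). Its means were 15.6 CPM in wt retina and 15.4 in wt striatum, and the genotypes differed by 0.91 (SE 0.15, adjusted p = 0.00204). C4b, a complement component, had 22.4, 43.5 and 31.1 CPM in R6/1 retina and 30.7, 35.3 and 26.7 in R6/1 striatum, which overlapped, whereas the wt retinas had 5.76, 7.90 and 5.44 and the wt striata 25.0, 33.4 and 22.5. The tissue difference of C4b was not called in R6/1 (0.07, SE 0.25), and it differed from wt by 2.16 (SE 0.36, adjusted p = 0.00556).

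Vascular and blood genes were mostly higher in striatum. Of 14 endothelial and pericyte genes 11 were higher in R6/1 striatum and Kdr and Vtn were higher in retina. All 5 red blood cell genes were higher in R6/1 striatum, at summed levels of 83.4 to 96.4 CPM against 19.8 to 31.6. Hba-a1 and Hba-a2, like Hbb-bs and Hbb-bt, are near-identical copies whose reads may be split between them. Of 10 choroid plexus genes 4 were higher in the R6/1 striata and 3 in the retinas, near the 36.9% and 36.3% of all genes. In wt these were 0 and 5, where 38.5% and 37.8% of all genes were. Their summed level was 30.6, 51.9 and 164 CPM in R6/1 striata 1, 2 and 3. Without R6/1 retina 2, 2 of the 10 genes were higher in striatum. Ttr was not called with R6/1 striatum 3 (−0.50, SE 1.25), and without that library it was higher in retina (1.80, adjusted p = 0.0208). Folr1, Aqp1 and Slc4a5 were higher in retina.

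Glycolytic genes were more often higher in retina, and mitochondrially encoded genes in striatum. Of 22 glycolysis and lactate genes 16 were higher in the R6/1 retinas and 6 in the striata, the same counts as in wt (median 0.78, wt 0.85). Hk2, the hexokinase of photoreceptors, had 248, 298 and 310.5 CPM against 4.90, 4.43 and 5.33 (5.88, SE 0.12), and Ldha had 614, 548 and 585 against 138, 143 and 152 (2.02, SE 0.07). Ldhb and Pfkm were higher in striatum (−1.31 and −1.17). Slc16a1, a lactate transporter, had a smaller difference in R6/1 (−0.71, SE 0.11, adjusted p = 0.00152). Of 13 mitochondrially encoded genes 9 were higher in R6/1 striatum against 13 in wt (median −0.28, wt −0.64). With scaling to library totals in place of TMM, which moves the median of all genes from 0.02 to 0.07, 4 were. Without R6/1 striatum 3 the count was 4, and without R6/1 retina 2 or R6/1 retina 3 it was 5. Between genotypes 4 were called, mt-Nd1, mt-Nd2, mt-Nd6 and mt-Atp8, each with a smaller difference in R6/1 (0.51, 0.49, 0.66 and 0.40).

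Activity, clock and degradation genes completed the lists. Of 16 immediate early genes 12 were higher in R6/1 striatum and Jun and Ier2 were higher in retina (median −1.44, wt −2.0). Arc, a synaptic activity marker, had 22.1, 29.5 and 47.2 CPM against 0.436, 0.617 and 0.499 (−5.96, SE 0.40). Between genotypes Egr1, Egr2, Junb, Dusp6 and Jun were called, all positive, with Jun at 37.3, 43.4 and 42.9 CPM in R6/1 retina, a mean of 24.1 in wt retina and 20.2 to 24.3 in R6/1 striatum (1.01, adjusted p = 0.000449). These were 3 genes without R6/1 retina 2, wt retina 1 or wt retina 3. Of 19 clock genes 10 were higher in the R6/1 retinas and 5 in the striata, where 36.3% and 36.9% of all genes were. Npas2, the forebrain partner of Bmal1, was higher in striatum (−3.85, SE 0.31), and Arntl, which encodes Bmal1, was higher in retina (2.10, SE 0.06) by more than in wt (0.64, adjusted p = 0.000978). Of 21 lysosomal genes 8 were higher in the R6/1 retinas and 9 in the striata, near the 36.3% and 36.9% of all genes. Gaa, acid glucosidase, had 262, 288 and 267 CPM in striatum against 58.5, 62.3 and 66.8 (−2.11, SE 0.07), and Tpp1 was higher in retina (1.37, SE 0.07).

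Several pairs of related genes divided between the tissues. Gnat1 and Gnal, the G protein alpha subunits of rods and of spiny neurons, had differences of 13.31 and −4.34, and the phosphodiesterases Pde6a and Pde10a had 13.68 and −3.13. The calcium sensors Rcvrn and Hpca had 10.02 and −3.37, and the receptor kinases Grk1 and Grk2 had 10.70 and −1.24. Gngt1 and Gng7, the gamma subunits, had 13.57 and −4.20. The pairs were written with earlier results of these data known, so their counts are no test. In all 15 pairs the first gene was higher in retina, and in 11 the second was higher in striatum, where 36.3% and 36.9% of all genes were. Among the other 4, Slc17a7 and Slc17a6 had 2.03 and 0.70, the latter not called, and Rorb and Rora had 3.21 and 1.95. Rgs9 (ENSMUSG00000020599, chromosome 11 from 109225355 to 109298129) serves both tissues with 1 gene, since it shortens transducin signalling in rods and dopamine signalling in spiny neurons. It had 558, 558 and 596 CPM in R6/1 retina and 161, 89.1 and 167 in R6/1 striatum (2.05, SE 0.26), with means of 847 and 356 in wt.

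**Figure D4:**
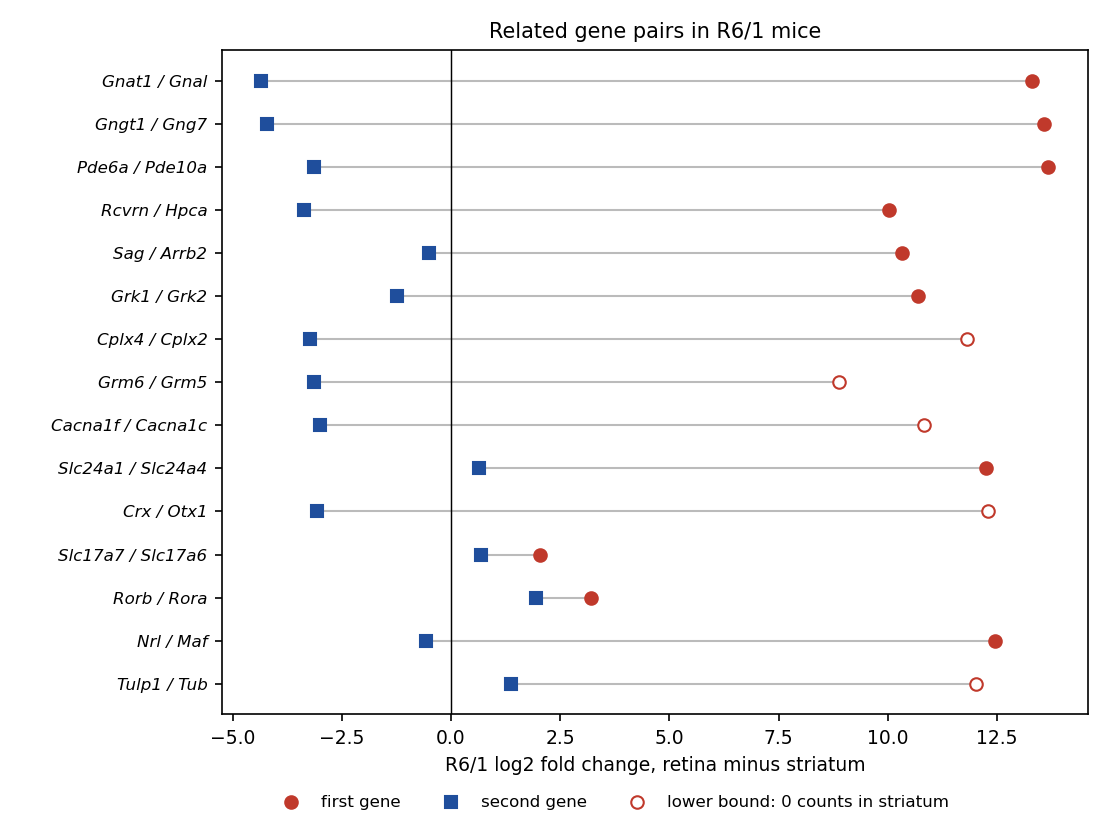
Log2 fold change, retina minus striatum, in R6/1 for 15 pairs of related genes, the first gene of each pair as a red circle and the second as a blue square. Open circles are lower bounds for genes at 0 in striatum, and the first gene lies to the right of the second in every pair, by the least for Rorb and Rora (3.21 and 1.95).

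Genes with a known use as references did not all hold between the tissues. Of 14 housekeeping genes 7 were higher in R6/1 retina, 5 in R6/1 striatum and 2 were not called. Among all genes tested, 36.3% and 36.9% were called in these directions, so the striatal count was near that of genes at large. Actb had 262, 294 and 311 CPM in retina against 870.1, 713 and 885 in striatum (−1.5, SE 0.10), Gapdh 2484, 2317 and 2447 against 1572, 1444 and 1538 (0.68, SE 0.06), and Tbp 66.2, 63.1 and 65.7 against 33.7, 33.1 and 34.1 (0.96, SE 0.06). Eef2 was not called (0.11, SE 0.07). For 625 genes (3.70%) the 95% interval of the log2 fold change lay within 0.25 of 0. Those with the smallest SE included Tmem127 with 109, 110.2 and 113 CPM in retina and 111, 111 and 109 in striatum, Wdr37, Pank3, Pja1, Nomo1 and Vcpip1. The mouse Htt gene was at 129.6, 158 and 146 CPM in R6/1 retina and 167, 183 and 183 in R6/1 striatum (−0.29, SE 0.08, adjusted p = 0.00798). Its counts come from a mouse reference, and the human transgene was not measured here.

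Over the transcriptome the R6/1 tissue difference followed the wt one on a somewhat smaller scale. The 2 comparisons share no library. Of 16581 genes tested in both, 10950 were called in the same direction, 90.1% of the R6/1 calls and 86.8% of the wt calls, and 44 were called in opposite directions. Of genes with at least an 8-fold difference, 1070 were shared, 86.1% of the 1243 in R6/1 and 71.2% of the 1503 in wt. Across 14174 genes with a mean of at least 1 CPM, Pearson's r of the fold changes was 0.971 and the slope of R6/1 on wt was 0.901, where genes are not independent replicates and share libraries. The SD of the fold changes was 1.81 in R6/1 and 1.95 in wt. For these 14174 genes the fold changes are differences of mean log2 CPM with a prior count of 2, and genes at 0 in a tissue were kept. Among them 528 genes were called and at least 8-fold higher in wt retina. Of these, 81.2% had a smaller difference in R6/1 (median change −0.52), and so had 73.0% of 745 genes higher in wt striatum (−0.32). When the genes were chosen in R6/1 instead, 70.1% of 451 genes (−0.30) and 59.0% of 625 genes (−0.12) were smaller in R6/1.

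**Figure D5:**
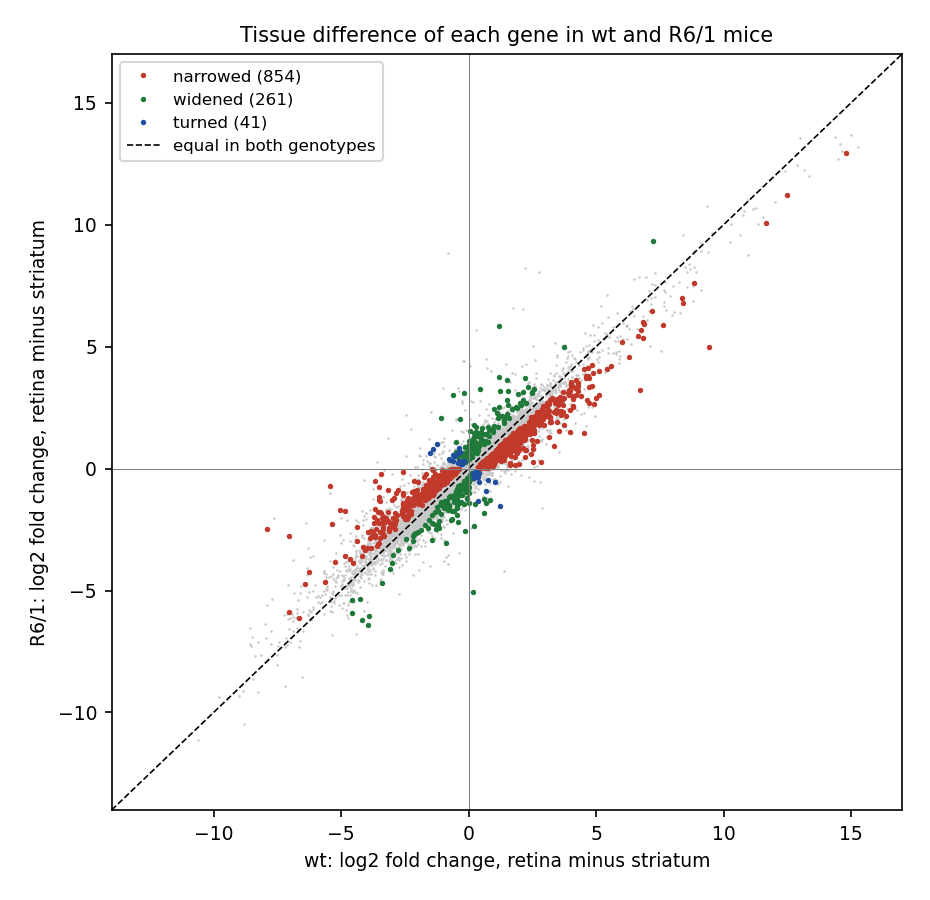
Log2 fold change, retina minus striatum, in wt (x axis) and R6/1 (y axis) for 14478 genes with no group mean at 0, with the line of equality dashed. Coloured genes differed between genotypes, 854 with a smaller difference in R6/1 (red), 261 with a larger one (green) and 41 with opposite directions (blue).

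The difference between the genotypes itself was called for 1236 of 16581 genes (7.45%), 736 (4.44%) lower and 500 (3.02%) higher in R6/1 as retina minus striatum. Of these, 856 (5.16%) had a smaller tissue difference in R6/1, 263 (1.59%) a larger one and 42 (0.253%) opposite and called directions in the genotypes. The remaining 75 (0.452%) met none of these definitions, such as C4b, whose tissue difference was called in wt alone and lay on the other side of 0 in R6/1. The count ran from 750 without wt retina 1 to 1956 without wt striatum 2, and the edgeR comparison cannot speak for the 895 genes at 0 in one tissue. Stk35 (ENSMUSG00000037885, chromosome 2 from 129800517 to 129832287), a kinase gene, had 271, 253 and 268 CPM in R6/1 retina, a mean of 709 in wt retina and 24.3 to 27.7 in R6/1 striatum, and its tissue difference was 3.37 against 4.85 in wt (−1.49, SE 0.10, adjusted p = 2.69e-06). Pfkfb2, a regulator of glycolysis, and Klhl18, a ubiquitin ligase adaptor of rods, had smaller differences as well (−1.02 and −1.19). In the other direction, Zdhhc23 had 14.9, 15.9 and 14.7 CPM in R6/1 retina, a mean of 6.00 in wt retina and 30.6 to 33.6 in R6/1 striatum (−1.09 against −2.56 in wt).

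Other genes had a larger or an opposite tissue difference in R6/1. Prtg (ENSMUSG00000036030, chromosome 9 from 72806874 to 72917291), a developmental immunoglobulin-family receptor, had 42.4, 56.9 and 41.9 CPM in R6/1 retina, a mean of 7.67 in wt retina and 4.84 to 4.95 in R6/1 striatum (difference between genotypes 2.80, SE 0.21, adjusted p = 9.94e-06). Fgf2, a growth factor released in injured retina, had 111, 163 and 106 CPM in R6/1 retina, a mean of 37.5 in wt retina and 9.68 to 11.2 in R6/1 striatum (2.13, SE 0.22). Stat3, a transcription factor of cytokine signalling, had 90.7, 117 and 107 CPM in R6/1 retina, 46.5 to 49.9 in R6/1 striatum and means of 45.1 and 44.2 in wt retina and striatum (1.09, SE 0.13). Ago4, an Argonaute gene, had 59.9, 60.9 and 57.3 CPM in R6/1 retina and 21.0, 19.5 and 21.7 in R6/1 striatum, with wt means of 33.5 and 31.8 (1.45, SE 0.11). E2f6, a transcriptional repressor, was higher in R6/1 retina, at 59.5, 63.4 and 54.5 CPM, than in R6/1 striatum, at 31.9, 31.8 and 35.1, and lower in wt retina than in wt striatum (27.9 and 35.6). The tissue order of E2f6 was thus opposite in the genotypes (1.2, SE 0.11, adjusted p = 4.64e-05), as it was for Ttyh2, Ift57, Ctso and Ubtf. In Dock8, Ccl9 and Hpgd the R6/1 retina was the lower tissue and the wt retina the higher one.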

How the data were processed

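RNA of retina and striatum of R6/1 and wild-type (wt) mice had been sequenced with a stranded mRNA kit in 12 libraries, 3 pools for each tissue and genotype. The authors trimmed the reads with Trimmomatic and quantified them with Salmon on GRCm38 (mm10), and they deposited estimated counts per gene as whole numbers. The submitters' processing notes name CASAVA as well, and the versions are not given in the sources used here. Total counts were 14070445 to 22432431 per library, and p-values measure the spread between pools only.

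Genes with at least 10 counts over the 6 libraries compared were tested with edgeR 4.0.16 (R 4.3.3), by the robust quasi-likelihood F-test with TMM factors and Benjamini-Hochberg adjustment, called at an adjusted p under 0.05. The comparison of genotypes took the R6/1 minus the wt tissue difference in 1 fit of the 12 libraries. Each SE is the size of the log2 fold change divided by the square root of its F statistic. It therefore uses a spread that edgeR moderates across genes. Levels are CPM (counts scaled to a common library size) with TMM factors, and genes at 0 in a tissue were given a lower bound at 3 counts per library. Samples were grouped by their labels. DESeq2 1.42.0, limma-voom (limma 3.58.1), other scalings and filters, and leaving out each library were tried as alternatives. The fits were tested on simulated data. The members and all 32 gene lists were chosen with earlier results of these data known. Named were the 12 genes of smallest p in each direction at 8-fold or more, up to 6 members of each list by smallest p with any that were not called or went against their list, up to 8 genes for each kind of difference between genotypes, related pairs, genes alike in both tissues, and genes the study measured otherwise. The added marker sets and the printed promoters, from RefSeq on GRCm38.p6, were chosen after the data were seen. Python 3.11.15 with pandas 2.3.3, numpy 2.4.6, scipy 1.17.1 and matplotlib 3.10.9 was used for summaries and figures. Some genes of these lists are counted but not named, and 1 related pair is not reported here and was left out of the count of pairs and its plot.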

Additional observations from a re-analysis of the deposited data

Results flagged for a closer look

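The tissue difference itself differed between R6/1 and wt for 1236 genes by edgeR's test of that difference with Benjamini-Hochberg adjustment, and the following were picked by smallest p in each kind. A smaller difference in R6/1 was found for Stk35 (−1.49), Klhl18 (−1.19), Slc26a2 (−1.28), Xiap (−1.03), Pfkfb2 (−1.02), Fam169a (−0.92), Taok3 (−1.24) and Zdhhc23 (1.46), each value being the R6/1 minus the wt log2 difference of retina and striatum. A larger difference was found for Prtg (2.80), Ago4 (1.45), 4930402H24Rik (−0.85), Rasa2 (1.11), Impg1 (2.06), Fgf2 (2.13), Elovl2 (1.02) and Stat3 (1.09). Opposite directions were found for E2f6 (1.2), Ttyh2 (1.13), Ift57 (0.91), Ctso (1.05), Ubtf (0.51), Dock8 (−1.71), Ccl9 (−2.78) and Hpgd (−1.23).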

How the results depend on the processing

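Leaving out 1 library in turn gave 5610 to 6101 genes higher in R6/1 retina, 5703 to 6069 higher in R6/1 striatum, and 496 to 527 and 710 to 811 at 8-fold or more. For the difference between genotypes it gave 750 (without wt retina 1; 761 without wt striatum 1) to 1956 genes (without wt striatum 2), 524 to 1368 with a smaller, 153 to 399 with a larger and 27 to 66 with an opposite difference. Without both striatal libraries numbered 2, a setting chosen after seeing the data, these were 2039, 1386, 454 and 65, and at an adjusted p under 0.01 they were 412, 297, 83 and 7. Requiring 1 count in every library left 335 genes at least 8-fold higher in retina, since genes at 0 in striatum are then not tested. Direction reversed for Crybb1, −3.97 without R6/1 retina 3 against 0.86 (−3.97 to 1.44 over the libraries left out), and for Ttr, 1.80 without R6/1 striatum 3 against −0.50 (−1.01 to 1.80), neither being called with all libraries. Of the other tissue differences of named genes, 6069 values kept their call, 49 lost it and 84 gained it. The tissues share mice, but whether equal library numbers mark the same mice is not stated. Same-numbered R6/1 libraries had correlated deviations of 0.087, 0.093 and 0.108, each the highest for its library, and wt libraries −0.027, 0.023 and −0.002. With the replicate block 6256 and 6261 genes were called in R6/1, 538 and 738 at 8-fold or more, and 1031 between genotypes, and 10 of 15 lens genes were called against 0. Depth limits genes near the floor of 3 counts.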
